A study of Mus musculus with 8 samples.

Results

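The mitochondrial genome of the mouse was represented in the deposited table by 8 transcript loci, out of 35299 loci in all. They were chosen by position alone, as every locus that the deposited annotation places on chrM, so no measured value entered the choice. Each locus has 1 exon on the plus strand and 1 UCSC identifier, and none carries a gene symbol in the files.

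The RNA came from the border zone of the heart, the rim of muscle around an infarct or the matching site of a sham-operated heart. All 8 animals were C57BL/6J mice, 12 weeks old, sampled 2 weeks after surgery, and no genetic change or drug is named for either group. The Sham group (n = 4) had the operation without an infarct, and the MI group (n = 4) had a myocardial infarction. RNA was selected for poly(A) tails before sequencing. Groups were taken from the titles, which match the treatment label, while the source field names Sham for every sample and some descriptions give the other operation. The titles of the 4 Sham libraries also carry a remark on reanalysis that the MI titles lack, so that remark and the infarct cannot be told apart.

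Mitochondria keep a small circular genome that encodes core subunits of the respiratory chain, the RNAs of their own ribosomes and a set of tRNAs. Both strands are copied into long precursors, tRNAs standing between the genes are cut out, and the freed messenger and ribosomal RNAs receive short poly(A) tails. All other subunits of the respiratory chain, and every protein that copies, cuts or translates mitochondrial RNA, are encoded in the nucleus. Heart muscle is among the tissues richest in mitochondria.

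The loci were named from the chrM genes of GENCODE release M21, which lists 13 protein-coding, 22 tRNA and 2 rRNA genes. That release is on GRCm38 and the files are on mm9. Of the 16 locus boundaries, 12 lay within 5 bases of a GENCODE gene boundary and 5 were equal to one, and on that ground the numbering of chrM was taken as shared. The 2 loci of ribosomal RNA come first. The locus XLOC_034011, named mt-Rnr1 (chrM:70-852, 783 bases), holds 82.0% of the small ribosomal RNA gene. The locus XLOC_034012, named mt-Rnr2/mt-Nd1 (chrM:1149-3703, 2555 bases), holds 96.5% of the large ribosomal RNA gene, the tRNA gene mt-Tl1 and 99.6% of mt-Nd1, a complex I subunit, so reads of these 3 genes are added together.

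The other 6 loci are protein-coding. The locus XLOC_034013, named mt-Nd2 (chrM:3849-4933, 1085 bases), holds 98.3% of that complex I gene and 94.2% of the tRNA gene mt-Tm before it. The locus XLOC_034014, named mt-Co1 (chrM:5327-6938, 1612 bases), holds the whole catalytic subunit gene of complex IV and lies opposite the tRNA gene mt-Ts1. The locus XLOC_034015, named mt-Co2 (chrM:7010-7699, 690 bases), holds the complex IV subunit that accepts electrons from cytochrome c. The locus XLOC_034016, named mt-Atp8/mt-Atp6 (chrM:7766-8607, 842 bases), holds both mitochondrially encoded subunits of complex V, the ATP synthase. The locus XLOC_034017, named mt-Nd4l/mt-Nd4 (chrM:9876-11542, 1667 bases), holds a pair of overlapping complex I genes. The last, XLOC_034018, named mt-Nd5/mt-Cytb (chrM:12406-15288, 2883 bases), joins 63.6% of mt-Nd5, of complex I, to the whole of mt-Cytb, the only complex III subunit encoded in mitochondria, and spans mt-Nd6 and the tRNA gene mt-Te on the opposite strand. The sources used here do not say whether the libraries keep the strand, so reads of mt-Nd6 and mt-Cytb in that locus cannot be told apart by strand. The 8 loci cover 12117 bases. mt-Nd3 has no base in any of them and mt-Co3 has 1 base (0.128%), so neither gene was measured.

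The poly(A) tail is part of the coding sequence for some of these genes, which bears on libraries selected for it. The 3' ends of 3 protein-coding genes stop 1 base into the last codon in GENCODE, and the tail supplies the rest of the stop codon. They are shown 5′ to 3′, as the last 31 bases of each GENCODE M21 transcript, with the base that follows the last whole codon in capitals.
mt-Nd4: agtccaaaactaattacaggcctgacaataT
mt-Cytb: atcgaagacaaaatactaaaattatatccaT
mt-Co3: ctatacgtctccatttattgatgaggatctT

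For comparison, the last 30 bases of both complex IV genes that were measured end in a complete stop codon, shown in capitals.
mt-Co1: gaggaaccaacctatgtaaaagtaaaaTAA
mt-Co2: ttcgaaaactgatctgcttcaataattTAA

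The mt-Atp8/mt-Atp6 locus is read as 1 unit because its genes overlap. The last 43 bases of mt-Atp8 are also the first 43 bases of mt-Atp6, shown in capitals in the first 60 bases of the mt-Atp6 transcript.
mt-Atp6: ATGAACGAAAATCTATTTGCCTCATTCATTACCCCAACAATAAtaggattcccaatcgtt

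The deposited values are read counts divided by 1 size factor per library, called normalised reads here. Libraries held 108 to 190.2 M reads in loci, of which 32.7 to 51.8 M fell on chrM, and no chrM locus had fewer than 22660 reads in any library. All 4 MI libraries (165 to 190.2 M reads) were deeper than all 4 Sham libraries (108 to 161 M), and the part of depth in the differences was not tested. The labels state biological replicates. All log2 differences are MI minus Sham on the log2(value + 1) scale with the standard error after ±, and adjusted p-values are from limma with Benjamini-Hochberg adjustment over 19186 loci with a mean of at least 10, unless another tool is named.

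Transcripts of the mitochondrial genome were less abundant in MI hearts. The 8 loci together summed to 52.5 ± 4.78 M normalised reads in Sham and 34.4 ± 3.49 M in MI (mean ± SD, n = 4 each). All 8 log2 differences were negative, from -0.99 for mt-Rnr1 to -0.54 for mt-Nd4l/mt-Nd4, with a median of -0.64 beside -0.02 over all loci tested. Of the 8, 6 were lower in MI at an adjusted p of 0.05 and 0 were higher, where over all loci tested 20.1% were lower and 20.8% were higher. In 7 of the 8 every MI library lay below every Sham library, a pattern seen in 20% of all loci tested, where 19.7% showed the reverse. edgeR's quasi-likelihood test and DESeq2, both on the recovered read counts, called 7 of 8 lower and 0 higher. Over all loci edgeR called 19% lower and 22.3% higher, and DESeq2 21.5% lower and 22.6% higher. The limma count was 3 without Sham replicate 1 or 3 or MI replicate 3 or 4, and 4 without Sham replicate 2 or 4. It was 5 without MI replicate 1 and 7 without MI replicate 2. Over all loci, 3180 to 3880 of 19186 were lower when single libraries were left out. With no filter on low values the count of chrM loci was 1, where 3229 of 35299 loci were lower. With a mean of at least 100 it was 7, where 3357 of 13398 were. Fewer cardiomyocytes in the tissue and less mitochondrial RNA per cell cannot be told apart in bulk RNA.

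**Figure D1:**
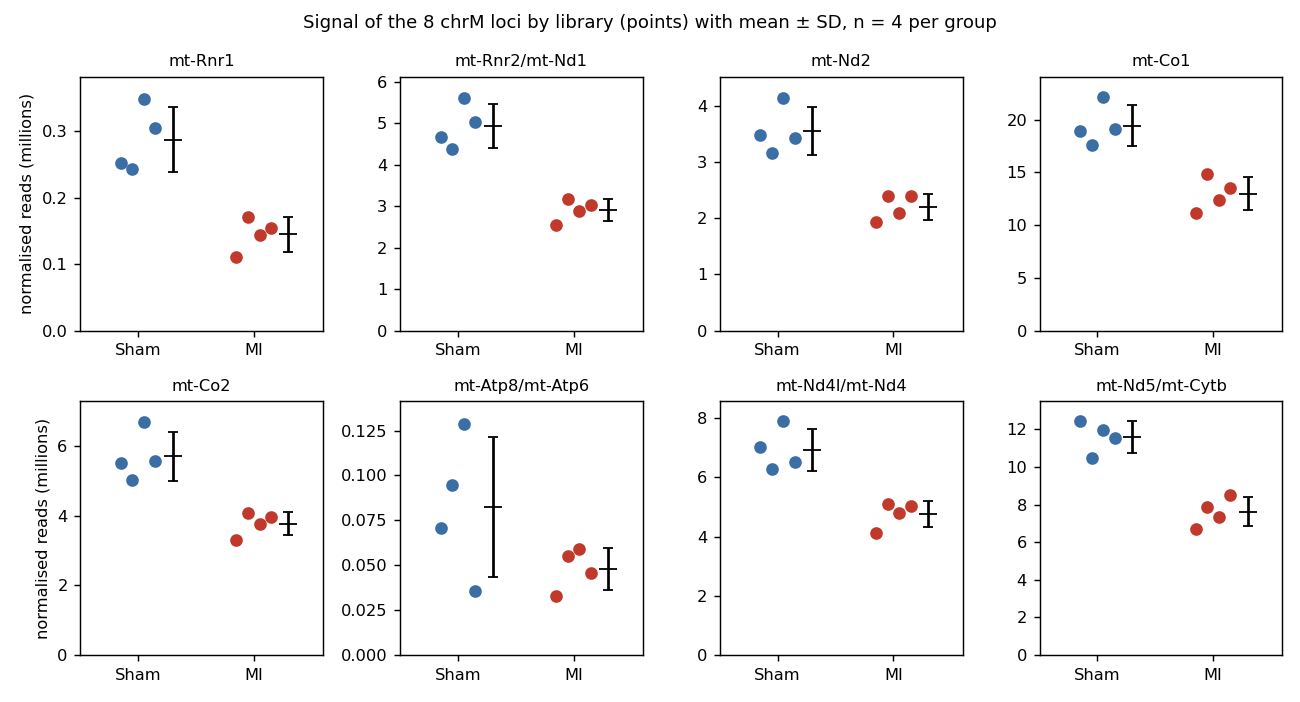
Normalised reads (unit M, linear axis from 0) of each chrM locus in the 4 Sham (blue) and 4 MI (red) libraries, 1 point per library, with mean ± SD beside each group. The groups are separate in 7 panels and overlap for mt-Atp8/mt-Atp6, where Sham replicate 4 lies at 35728 normalised reads.

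Both loci that hold ribosomal RNA had lower signal in MI. In libraries selected for poly(A) tails, a change in a ribosomal RNA and one in its tailing or capture cannot be told apart. The small ribosomal RNA, mt-Rnr1, stood at 252012, 243760, 348090 and 305625 normalised reads in Sham replicates 1 to 4. In MI replicates 1 to 4 it stood at 110024, 171457, 143244 and 154277. The MI mean was 50.4% of the Sham mean, with the highest MI library below the lowest Sham library (log2 difference -0.99 ± 0.15, adjusted p = 6.15e-04). This RNA is the scaffold of the small subunit of the mitochondrial ribosome. The large ribosomal RNA shares its locus with mt-Nd1, and mt-Rnr2/mt-Nd1 held 4.66, 4.39, 5.61 and 5.04 M normalised reads in Sham. Its MI libraries held 2.55, 3.18, 2.88 and 3.02 M. The groups did not overlap and the MI mean was 59.1% of the Sham mean (log2 difference -0.76 ± 0.17, adjusted p = 0.00463).

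The 2 loci that hold complex I genes and no ribosomal RNA or gene of another complex fell. mt-Nd2 stood at 3.48, 3.16, 4.15 and 3.43 M normalised reads in Sham and at 1.93, 2.39, 2.10 and 2.39 M in MI. Every MI library was below every Sham library (log2 difference -0.69 ± 0.16, adjusted p = 0.00614). The bicistronic messenger of mt-Nd4l/mt-Nd4, which encodes a pair of proton-pumping membrane subunits, held 7.01, 6.29, 7.89 and 6.52 M in Sham. In MI it held 4.13, 5.10, 4.80 and 5.04 M. The MI mean was 68.8% of the Sham mean, the smallest relative fall among the 8 loci, and the groups were again separate (log2 difference -0.54 ± 0.18, adjusted p = 0.0384). That call passed without MI replicate 2 (adjusted p = 0.0283) and failed without any other single library, with adjusted p from 0.0512 without MI replicate 1 to 0.0951 without MI replicate 3. The log2 difference ran from -0.58 to -0.47 in these limma fits. With all libraries, edgeR gave this locus an adjusted p of 0.00372 and DESeq2 one of 4.06e-07.

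The complex IV loci were the strongest signals of the table per base. mt-Co1, the catalytic subunit of cytochrome c oxidase, held 18.9, 17.7, 22.1 and 19.1 M normalised reads in Sham. Its MI libraries held 11.2, 14.8, 12.4 and 13.5 M. Every MI library was below every Sham library and the MI mean was 66.7% of the Sham mean, but the locus missed the limma threshold (log2 difference -0.59 ± 0.24, adjusted p = 0.0783). edgeR gave it -0.56 with an adjusted p of 0.00451, and DESeq2 gave it -0.57 with an adjusted p of 5.74e-07. The limma standard error of mt-Co1 was wider than that of mt-Nd2 although its coefficients of variation, 9.77% in Sham and 12.1% in MI, were close to the 11.9% and 10.3% of mt-Nd2. The limma fit draws part of each variance from a trend with intensity, and mt-Co1 had the strongest signal of all loci. At the same log2 difference of -0.59, its standard error was 10.4 with no filter on low values. With a mean of at least 100 it was 0.18, and mt-Co1 passed (adjusted p = 0.0225). Without MI replicate 2, the highest MI library at this locus, mt-Co1 passed with limma too (adjusted p = 0.0393).

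mt-Co2, the other complex IV locus, stood at 5.51, 5.05, 6.71 and 5.58 M normalised reads in Sham and at 3.31, 4.08, 3.76 and 3.97 M in MI. The groups were separate and the MI mean was 66.2% of the Sham mean (log2 difference -0.59 ± 0.18, adjusted p = 0.0219). Its call was lost without Sham replicate 1, 3 or 4 or without MI replicate 3 or 4, with adjusted p between 0.0530 and 0.0635. Leaving out single libraries gave log2 differences from -0.65 to -0.51. With all libraries, edgeR gave mt-Co2 an adjusted p of 0.00260 and DESeq2 one of 1.80e-07.

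mt-Cytb, a heme-carrying subunit of complex III, shares its locus with part of mt-Nd5. mt-Nd5/mt-Cytb held 12.4, 10.5, 11.9 and 11.5 M normalised reads in Sham and 6.73, 7.89, 7.33 and 8.53 M in MI. The groups were separate and the MI mean was 65.7% of the Sham mean (log2 difference -0.61 ± 0.21, adjusted p = 0.0370). Only leaving out MI replicate 1 or 2 kept this call with limma (adjusted p = 0.0427 and 0.0288). Without any other single library the adjusted p ran from 0.0636 to 0.107. Leaving out single libraries gave log2 differences from -0.67 to -0.55. With all libraries, edgeR gave this locus an adjusted p of 0.00172 and DESeq2 one of 6.60e-10.

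The complex V locus was the exception in spread. mt-Atp8/mt-Atp6 stood at 70629, 94708, 128416 and 35728 normalised reads in Sham, and at 32599, 54869, 58975 and 45634 in MI. Sham replicate 4 fell inside the MI range, and the coefficient of variation was 47.5% in Sham and 24.4% in MI, against 7.17% to 17.9% at the other 7 loci. The log2 difference of -0.67 ± 0.34 was not past the threshold with limma (adjusted p = 0.136), edgeR (adjusted p = 0.0881) or DESeq2 (adjusted p = 0.0876). The value moved with single Sham libraries: it was -1.02 ± 0.23 without Sham replicate 4 (limma, adjusted p = 0.00777) and -0.41 ± 0.31 without Sham replicate 3 (adjusted p = 0.332).

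Levels can be compared between loci only per length. Per kb of locus, mt-Co1 stood at 12.1 ± 1.18 M normalised reads in Sham and mt-Co2 at 8.28 ± 1.02 M (mean ± SD, n = 4), the first and second ranks among all 35299 loci by the mean over 8 libraries. mt-Nd4l/mt-Nd4 (4.15 ± 0.425 M per kb) and mt-Nd5/mt-Cytb (4.02 ± 0.288 M per kb) followed, and these neighbours in the order did not differ beyond their spread. mt-Nd2 came next at 3.28 ± 0.389 M per kb and mt-Rnr2/mt-Nd1 at 1.93 ± 0.207 M per kb, at rank 6. mt-Rnr1, at 0.367 ± 0.0624 M per kb, ranked 11, in libraries selected for poly(A) tails. mt-Atp8/mt-Atp6, at 0.0978 ± 0.0464 M per kb, ranked 36.

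The order per kb was the same in MI: 8.05 ± 0.974 M for mt-Co1, 5.48 ± 0.490 M for mt-Co2, 2.86 ± 0.265 M for mt-Nd4l/mt-Nd4, 2.64 ± 0.267 M for mt-Nd5/mt-Cytb, 2.03 ± 0.210 M for mt-Nd2 and 1.14 ± 0.105 M for mt-Rnr2/mt-Nd1. mt-Rnr1 (0.185 ± 0.0331 M per kb) and mt-Atp8/mt-Atp6 (0.0570 ± 0.0139 M per kb) again came last. Although mt-Atp8/mt-Atp6 begins a short distance after the end of mt-Co2 on the same strand, mt-Co2 stood 63.8 to 191 times higher per kb in Sham and 77.8 to 124 times higher in MI. Of the 100-base windows of mt-Atp6, 99.5% also occur in annotated nuclear transcripts, and 99.5% of those of mt-Co2. How reads that match several sites were counted is not given. The rank of mt-Atp8/mt-Atp6 and these ratios are therefore of counted reads and may not be those of the transcripts.

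The chrM loci also took a smaller share of all reads in MI, a measure that no size factor can move. In Sham replicates 1 to 4 they took 31.2%, 29.2%, 32.3% and 30.2% of the reads in loci, and in MI replicates 1 to 4 they took 23.8%, 26.1%, 24.3% and 25.4%. Every MI library was below every Sham library (30.7 ± 1.33% against 24.9 ± 1.04%, mean ± SD, n = 4 each). The share is a sum over the loci described here and is given without a test. The deposited size factors left a different total in the groups, since the signal outside chrM summed to 118 ± 4.08 M normalised reads in Sham and 104 ± 5.30 M in MI.

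The size of each fall therefore depended on the scaling while its direction did not. With every library scaled to the same total over all loci, the median log2 difference over all loci tested became 0.29 and the chrM loci ranged from -0.69 for mt-Rnr1 to -0.23 for mt-Nd4l/mt-Nd4. With the total outside chrM held equal, the median over all loci became 0.17 and the chrM loci ranged from -0.80 to -0.35. Both scalings called 7 of the 8 loci lower and 0 higher, where total scaling called 7.81% of all loci lower and 44.4% higher, and scaling to the total outside chrM 11.2% lower and 33.2% higher. Under each of them mt-Co1 passed (adjusted p = 0.0218 and 0.0188) and mt-Atp8/mt-Atp6 did not (adjusted p = 0.376 and 0.268).

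**Figure D2:**
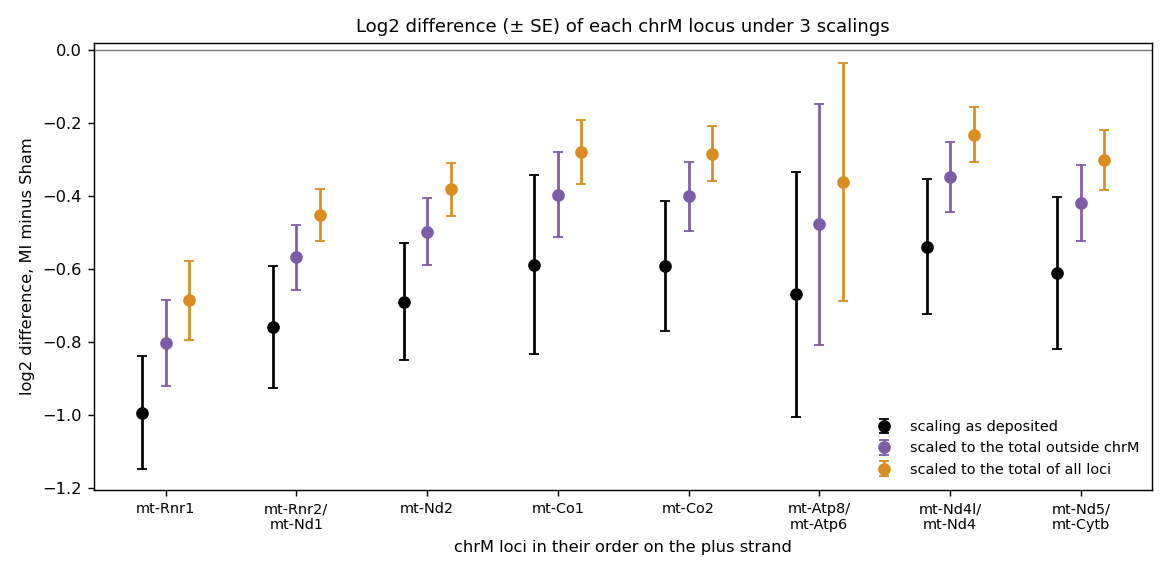
Log2 difference, MI minus Sham, with its standard error for each chrM locus in order along the plus strand, under the deposited scaling (black), scaling to the total outside chrM (purple) and scaling to the total of all loci (orange). All points lie below 0, and mt-Rnr1 has the lowest point under each scaling (-0.99, -0.80 and -0.69).

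The mix of transcripts within chrM was compared by dividing each library by its own chrM sum. The ribosomal RNA loci fell further than the sum: mt-Rnr1 was lower relative to it (log2 difference -0.38 ± 0.09, adjusted p = 0.00269), and so was mt-Rnr2/mt-Nd1 (-0.15 ± 0.05, adjusted p = 0.0281). These 2 were the loci called lower among the 8 and 0 were called higher, where 2.86% of all loci tested were lower and 67.4% were higher relative to the chrM sum. The call of mt-Rnr2/mt-Nd1 was lost without Sham replicate 3 or 4 or MI replicate 1 or 4, with log2 differences of -0.14, -0.13, -0.15 and -0.14, and that of mt-Rnr1 held without any single library (-0.44 to -0.32).

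mt-Rnr1 made up 0.481%, 0.515%, 0.591% and 0.593% of the chrM sum in Sham replicates 1 to 4. In MI replicates 1 to 4 it made up 0.367%, 0.455%, 0.428% and 0.421%. All 4 MI shares lay below all 4 Sham shares. The share of mt-Rnr2/mt-Nd1 was 9.37 ± 0.371% in Sham and 8.45 ± 0.162% in MI, also without overlap. Per kb, mt-Rnr1 stood at 0.190 ± 0.0126 of the level of mt-Rnr2/mt-Nd1 in Sham and at 0.161 ± 0.0149 in MI. The poly(A)-selected signal of mt-Rnr1 thus fell further in the mean than that of mt-Rnr2/mt-Nd1, which also holds the mt-Nd1 messenger. The highest MI ratio (0.1758) was just below the lowest Sham ratio (0.1764).

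Among the protein-coding loci the shares moved little. mt-Nd2 went from 6.76 ± 0.194% to 6.40 ± 0.113% of the chrM sum and mt-Nd4l/mt-Nd4 from 13.2 ± 0.355% to 13.8 ± 0.355%. In both the groups did not overlap, with MI lower for mt-Nd2 and higher for mt-Nd4l/mt-Nd4, but neither passed the test relative to the chrM sum (log2 differences -0.08 ± 0.05 and 0.07 ± 0.05, adjusted p = 0.188 and 0.236). mt-Co1 took 37.0 ± 0.604% and 37.6 ± 1.17%, and mt-Co2 took 10.9 ± 0.381% and 11.0 ± 0.203%, with overlapping groups. mt-Nd5/mt-Cytb took 22.1 ± 1.43% and 22.1 ± 0.983%, and mt-Atp8/mt-Atp6 took 0.156 ± 0.0676% and 0.139 ± 0.0292%, again with overlap. A locus as large as mt-Co1 is tied to the sum it is divided by, so its ratio to another locus was also read. Per kb, mt-Co1 stood at 3.69 ± 0.0799 times mt-Nd2 in Sham and 3.96 ± 0.161 times in MI, with every MI ratio above every Sham ratio. The share of mt-Nd2 itself was lower in MI, so this ratio does not tell which of the 2 loci moved. Ratios of mt-Co1 to the other protein-coding loci were not read.

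**Figure D3:**
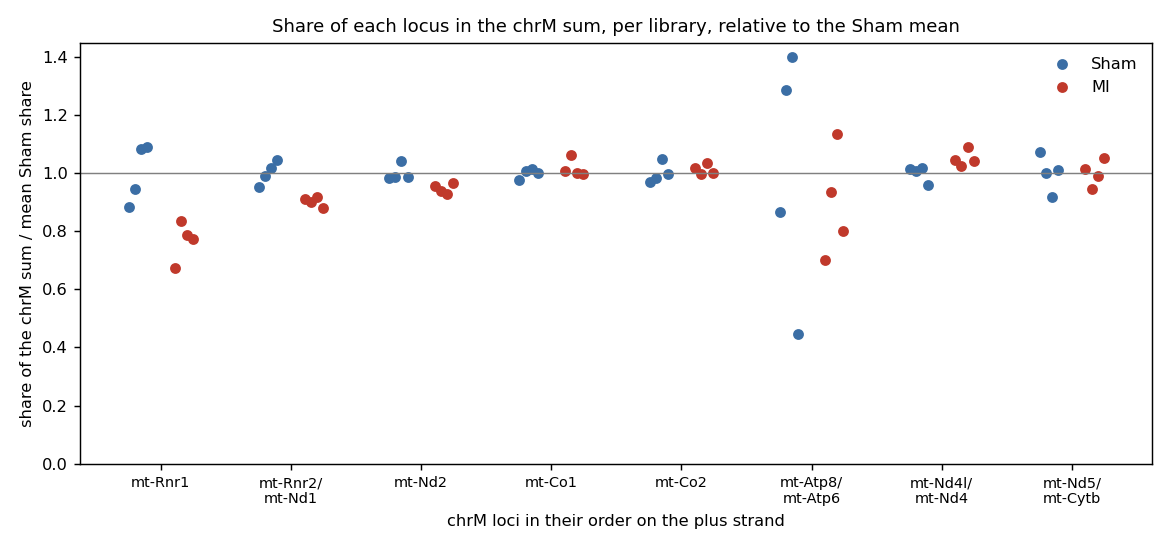
Share of each locus in the chrM sum of its library, divided by the mean Sham share, for 4 Sham (blue) and 4 MI (red) libraries in order along the plus strand, on a linear axis from 0. The MI points of mt-Rnr1 (0.367% to 0.455% of the chrM sum) lie below all Sham points, while those of mt-Co1 and mt-Co2 stay near 1 and mt-Atp8/mt-Atp6 scatters widely.

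The fall was larger at the loci near the start of the plus-strand numbering. From mt-Rnr1 through mt-Rnr2/mt-Nd1 and mt-Nd2 to mt-Co1 the log2 differences ran -0.99, -0.76, -0.69 and -0.59, and the loci after mt-Co1 lay between -0.67 and -0.54. Over the 8 loci, start position and log2 difference had a Spearman correlation of 0.71 and a Pearson correlation of 0.78. These are descriptions over 8 points from the same 8 libraries, and the level per kb ran with the log2 difference as well (Spearman 0.79, Pearson 0.59).

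Nuclear copies of mitochondrial genes can take reads from chrM loci, and the copies known to GENCODE were compared with each gene in windows of 100 bases, the read length. For mt-Atp6, 99.5% of windows occurred without mismatch in an annotated nuclear transcript, and the best copy, Gm10925, matched 678 of 678 aligned bases. mt-Co2 had 99.5% of its windows in nuclear transcripts (best copy Gm28661), mt-Nd4l 98.5%, mt-Nd4 60.8% and mt-Co1 30.8%. mt-Nd2 had 3.19%. mt-Rnr1, mt-Rnr2, mt-Nd1, mt-Nd5, mt-Nd6, mt-Cytb and mt-Atp8 had 0 such windows. How the aligner and counter placed reads that match several sites is not given in the sources used here, and the part of such reads in the differences was not tested.

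A chr1 locus of the deposited table was taken as a likely nuclear copy of mt-Atp8/mt-Atp6, by its single exon and equal length alone. Its sequence was not compared, and the table was not searched for copies on other chromosomes. This locus (mm9 chr1:24620810-24621651, minus strand, UCSC identifier uc007ams.1) is 842 bases long, the same as mt-Atp8/mt-Atp6. It held 146141, 103514, 85774 and 54011 normalised reads in Sham, and 26053, 26185, 36706 and 50313 in MI. Every MI library was below every Sham library (log2 difference -1.45 ± 0.29, adjusted p = 0.00260). The chr1 locus took 55.0 ± 11.7% of the signal of the pair in Sham and 41.9 ± 8.60% in MI, with overlapping groups, and the split ran from 32.3% to 67.4% over the 8 libraries. With the pair added together, an alternative chosen after the data were seen, the log2 difference was -1.06 ± 0.27 and passed the threshold (adjusted p = 0.00992). The added values still overlapped between groups, since Sham replicate 4 held 89738 and the highest MI library 95947.

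**Figure D4:**
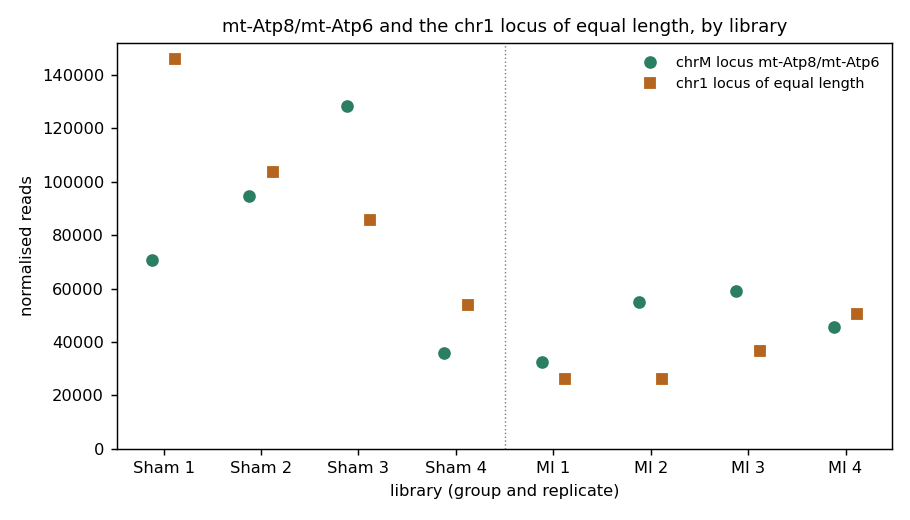
Normalised reads (linear axis from 0) of the chrM locus mt-Atp8/mt-Atp6 (green circles) and of the chr1 locus of equal length (orange squares) in each of the 8 libraries. The chr1 locus is above the chrM locus in Sham replicates 1, 2 and 4 and in MI replicate 4, and Sham replicate 4 is the lowest Sham library for both.

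The nuclear genes that act with the chrM loci were read from lists chosen with earlier results of these data known. Of 78 nuclear subunits of complexes I to V, 64 could be tested on a locus shared with no other named gene. Of these, 62 were lower in MI and 0 were higher, where 20.1% of all loci were lower and 20.8% higher. Their median log2 difference was -0.55, beside -0.64 for the chrM loci and -0.02 for all loci. By complex, 28 of 29 tested members were lower in complex I (median -0.56), 4 of 4 in complex II, which has no mitochondrially encoded subunit (median -0.71), 8 of 8 in complex III with cytochrome c (median -0.50), 10 of 10 in complex IV (median -0.55) and 12 of 13 in complex V (median -0.57). The members that did not pass were Ndufa11 of complex I (-0.25 ± 0.09, adjusted p = 0.0534) and Atpif1, an inhibitor of the ATP synthase (0.23 ± 0.08, adjusted p = 0.0539). They are named because they are the exceptions. With every library scaled to the same total, 18 of 29 were lower in complex I, 4 of 4 in complex II, 4 of 8 in complex III, 8 of 10 in complex IV and 10 of 13 in complex V, where 1 was higher. That scaling called 7.81% of all loci lower and 44.4% higher.

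Among partners of the mitochondrially encoded subunits, Sdha, the flavoprotein of complex II, went from 227764 ± 14780 normalised reads in Sham to 131479 ± 15287 in MI (log2 difference -0.80 ± 0.10, adjusted p = 1.70e-04). Ndufs7 (-0.75 ± 0.11) and Ndufv1 (-0.73 ± 0.09) belong to the arm of complex I outside the membrane, which the ND subunits anchor. Uqcrc1, a core protein of complex III beside mt-Cytb, differed by -0.70 ± 0.11, and Uqcrq by -0.61 ± 0.11. Cox6a2, the muscle form of a complex IV subunit, differed by -0.74 ± 0.12 and Cox4i1 by -0.59 ± 0.11, beside -0.59 for both mt-Co1 and mt-Co2. Atp5a1 (-0.64 ± 0.11) and Atp5c1 (-0.60 ± 0.08) belong to the part of complex V that makes ATP. All of these passed with adjusted p from 9.81e-05 for Sdhc (-0.73 ± 0.08), the membrane anchor of complex II, to 0.00200 for Cox4i1.

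Genes that copy and read mitochondrial DNA differed less. Of 19 such genes, 18 were tested, 13 were lower and 0 higher, with a median of -0.36. Over all loci tested 20.1% were lower and 20.8% higher. Twnk, the helicase of mitochondrial DNA, fell by 0.62 on the log2 scale (adjusted p = 3.31e-04), and Mgme1, a nuclease of mitochondrial DNA, fell by 0.59 (adjusted p = 3.53e-04). Tfam, which packs mitochondrial DNA and starts its transcription, and Polrmt, the polymerase that makes the chrM transcripts, were singled out for their role with their values known. Tfam differed by -0.33 ± 0.07 (adjusted p = 0.00372) and Polrmt by -0.32 ± 0.09 (adjusted p = 0.0177), both nearer 0 than any of the 8 chrM loci. Under total scaling the list had 5 members lower and 2 higher, where 7.81% of all loci were lower and 44.4% higher.

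Of 26 genes for the cutting, tailing, stability and decay of mitochondrial RNA, 21 were tested, 14 were lower and 0 higher (median -0.39). The shares over all loci tested were 20.1% lower and 20.8% higher. Hsd17b10, a subunit of the enzyme that cuts tRNA 5' ends out of the precursor, fell by 0.70 (adjusted p = 8.93e-05), and Fastk, an RNA-binding protein of mitochondria, fell by 0.68 (adjusted p = 3.14e-04). Lrpprc, which stabilises mitochondrial messenger RNAs, differed by -0.65 ± 0.08 (adjusted p = 1.21e-04), while its partner Slirp differed by -0.11 ± 0.12 (adjusted p = 0.484) and Mtpap, the mitochondrial poly(A) polymerase, by -0.05 ± 0.07 (adjusted p = 0.601). These last 3 were also chosen for their role with their values known. With total scaling, 5 of the 21 were lower and 3 higher, where 7.81% of all loci were lower and 44.4% higher.

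Translation factors of mitochondrial ribosomes were lower in 10 of 10 tested members (median -0.41), where 20.1% of all loci were lower. Among them were Mtrf1, a release factor (-0.55 ± 0.10), and Tufm, the elongation factor Tu (-0.53 ± 0.10). With total scaling 4 of 10 were lower, where 7.81% of all loci were. Nuclear regulators of mitochondrial genes were mixed, with 3 of 9 lower, 2 of 9 higher and a median of -0.11, where 20.1% of all loci were lower and 20.8% higher. The count of higher members was 0 without Sham replicate 1 or 4 or MI replicate 3, and 1 without Sham replicate 2 or MI replicate 1, 2 or 4. The nuclear receptors Esrrg (-0.55 ± 0.10, adjusted p = 0.00131) and Esrrb (-0.49 ± 0.08, adjusted p = 7.31e-04) were lower, and Pprc1 (0.27 ± 0.09, adjusted p = 0.0440) and Gabpb1 (0.21 ± 0.07, adjusted p = 0.0276) were the 2 higher members, named after their values were seen. Ppargc1a, the coactivator often read as the master switch of mitochondrial growth, was chosen for its role with its values known. It ranged from 23338 to 35406 normalised reads in Sham and from 19675 to 43335 in MI, and its groups overlapped (-0.11 ± 0.23, adjusted p = 0.733). With total scaling 0 of the 9 were lower and 4 higher, where 44.4% of all loci were higher. Of 12 tested membrane and matrix proteins often read as mitochondrial content, 9 were lower and 0 higher (median -0.50). Over all loci tested 20.1% were lower and 20.8% higher. The largest falls were those of the ADP/ATP carrier Slc25a4 (-0.62 ± 0.13) and citrate synthase, Cs (-0.60 ± 0.09). Log2 differences in this list ran from -0.62 to -0.04, and its count under total scaling is not given here.

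**Figure D5:**
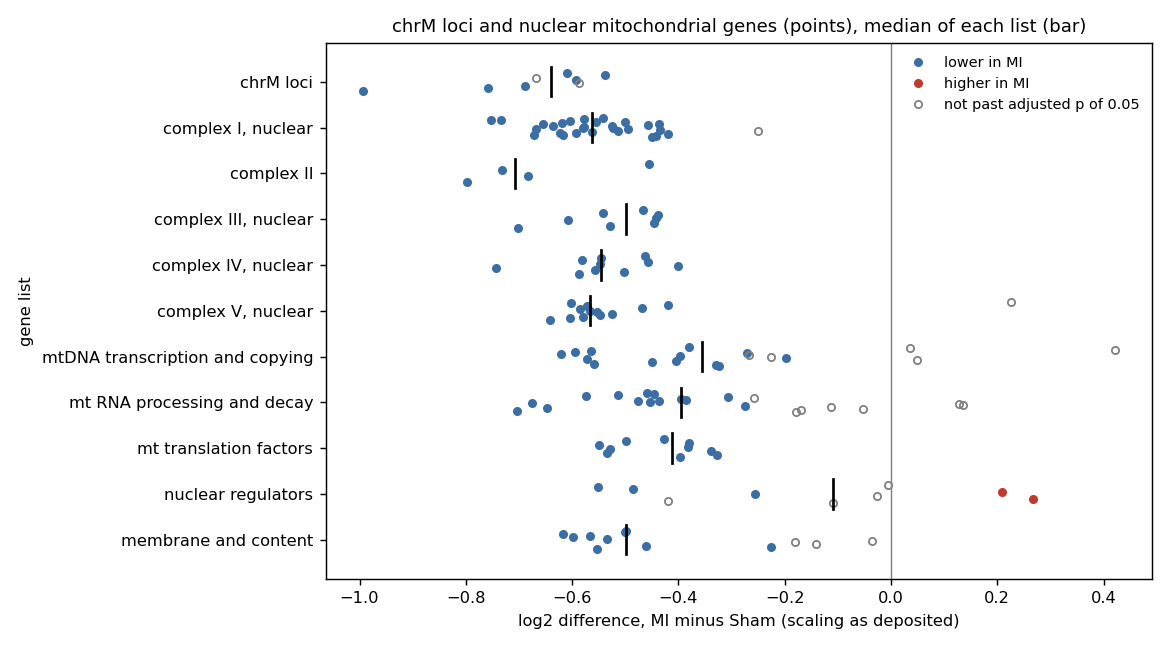
Log2 difference, MI minus Sham, of the chrM loci and of each tested nuclear gene by list under the deposited scaling (blue lower, red higher, open grey not past an adjusted p of 0.05), with a bar at each list's median. The chrM loci (median -0.64) other than mt-Rnr1 lie among the nuclear subunits of complexes I to V (median -0.55). mt-Rnr1 (-0.99) lies below the lowest of those subunits, Sdha (-0.80). The regulator list is the only one with red points.

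Markers of cell types moved with the groups too. Beside each count below, 20.1% of all loci tested were lower in MI and 20.8% were higher. All marker values are under the deposited scaling, and their size depends on it. Scaling to the total of all loci moved the median log2 difference over all loci tested from -0.02 to 0.29. Marker counts under that scaling are not given here. The heart muscle markers, which define the labelled tissue, summed to 5917380 to 6656297 normalised reads in Sham and 4160884 to 5087027 in MI, and 4 of 8 tested members were lower and 0 higher (median -0.46), with Mb, the oxygen store of muscle, at -0.49 ± 0.13 (adjusted p = 0.0128) and Actc1, cardiac actin, at -0.10 ± 0.15 (adjusted p = 0.611). Fibroblast markers were higher in 7 of 7 tested members (median 2.83), with sums of 107285 to 161249 in Sham and 588596 to 911837 in MI, and the collagen gene Col3a1 at 3.20 ± 0.30 (adjusted p = 3.10e-05). Macrophage markers were higher in 4 of 4 (median 0.64, sums of 13172 to 18273 and 21032 to 26863), and lymphocyte markers in 7 of 7 (median 1.22, sums of 253 to 386 and 388 to 810). The lymphocyte count was 3 without MI replicate 4 and 4 without Sham replicate 2 or 3 or MI replicate 1 or 3. Smooth muscle and pericyte markers were higher in 4 of 7 (median 0.57, sums of 130923 to 150610 and 135585 to 167080), and endothelial markers in 0 of 6 (median 0.12, sums of 111588 to 150590 and 121513 to 145107). No marker with a locus of its own was at 0 in all libraries. The part of this change in cell types in the fall of the chrM loci was not tested.

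By likeness of pattern, 8250 named nuclear loci with a mean of at least 1000 were compared with the summed chrM signal over the 8 libraries. The 5 with the highest Pearson correlation of log2 values were Ndufs3, a complex I subunit (0.999), Prdx3, a peroxidase of the mitochondrial matrix (0.999), Sdhb, a complex II subunit (0.998), Lonp2, a peroxisomal protease (0.998), and Faf1, an adaptor of protein degradation (0.998). Sdhb was lower in MI by a log2 difference of -0.68 ± 0.10 and Lonp2 by -0.27 ± 0.06, so loci of like pattern differed in the size of the change. Such correlations share the contrast between groups and the size factor of each library, and 1673 of the 8250 loci had one above 0.9.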

How the data were processed

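Trizol RNA was selected for poly(A), sequenced in paired reads of 100 bases, and per the submitters' processing notes processed on mm9 with DESeq, HTSeq 0.5.4p2, Cufflinks 2.0.2 and TopHat2 2.0.5, with settings not given in the sources used here. The authors deposited a normalised signal per locus, read counts divided by 1 size factor per library, and an annotation of exon positions. Values were whole multiples of each library's smallest step within 0.000001, which gave back the read counts. No 2 libraries were duplicates (chi-square per degree of freedom of 31.2 or more).

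In R 4.3.3, log2(signal + 1) of loci with a mean of at least 10 was fitted by limma 3.58.1, allowing for a trend of variance with intensity, and tested 2-sided. edgeR 4.0.16, DESeq2 1.42.0, other scalings, filters, pseudocounts and leaving out each library served as alternatives. Scripts were tested on simulated data. Nuclear loci were named by exon and intron lengths shared with GENCODE M21 (18716 named, of which 810 holding several genes were left out of lists). Nuclear copies were found with blastn 2.17.0. Python 3.11.15 was used with numpy 2.4.6, pandas 2.3.3 and scipy 1.17.1.

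Named genes were all 8 chrM loci, from each list the 2 that changed most among those called, the 2 strongest markers of each cell type and the 5 loci most like the chrM sum. Some genes that the rule picks are left out of the text for brevity. Tfam, Polrmt, Lrpprc, Slirp, Mtpap, Ppargc1a, Pprc1, Gabpb1, Ndufa11 and Atpif1 were named outside it with their values known. The members and lists were chosen with earlier results of these data known.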

Additional observations from a re-analysis of the deposited data

Results flagged for a closer look

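Among 36 groups of 4 libraries, 3 held a library far from the other 3 in the share of a locus in the chrM sum, and chance flags about 1 in 20 such groups. Sham replicate 3 had 7.05% of its chrM signal on mt-Nd2, above the other Sham libraries. MI replicate 2 had 39.4% on mt-Co1, above the other MI libraries, and it is the library without which mt-Co1 passed the limma threshold. Sham replicate 4 had 12.6% on mt-Nd4l/mt-Nd4, below the other Sham libraries, and it also held the lowest Sham value of mt-Atp8/mt-Atp6.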

How the results depend on the processing

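The direction of all 8 chrM loci was the same under each of the alternatives run. The count of chrM loci lower in MI was 6, and 1 without a filter on low values, where only mt-Rnr1 passed (adjusted p = 0.0133). Without that filter 3229 of 35299 loci were lower. In that fit the log2 differences were unchanged, while the standard error of mt-Co1 went from 0.24 to 10.4. The count was 7 with a mean of at least 100, with upper-quartile scaling and with limma-voom. Over all loci these called 3357 of 13398, 4809 of 19186 and 3637 of 19186 lower. Leaving out 1 library at a time gave 3 to 7, with 3 without MI replicate 3 or 4 or Sham replicate 1 or 3. In those fits 3180 to 3880 of 19186 loci were lower. A pseudocount of 5 gave 4, where 3871 of 19186 loci were lower. Relative to the chrM sum the count of 2 lower became 1 to 2 without single libraries, and the uncalled values ran from -0.40 to 0.15 for mt-Atp8/mt-Atp6 and from -0.040 to 0.036 for mt-Nd5/mt-Cytb, so neither has a stable sign. Over all loci tested, 3855 were lower and 3999 higher. Scaling to the total of all loci gave 1498 and 8525, and scaling to the total outside chrM gave 2145 and 6368. Under the deposited scaling the total was 171 ± 8.60 M normalised reads in Sham and 138 ± 8.69 M in MI (mean ± SD, n = 4 each). Setting the totals equal therefore raises MI values against Sham. Why the totals differ was not tested. Samples share replicate numbers, but same-numbered deviations correlated at 0.15, 0.27, 0.16 and -0.0009 and not every Sham library correlated best with its own number, so they share only a number. With the number as a replicate block, 4 chrM loci were lower, where 21.1% of all loci were, and 1 was lower relative to the chrM sum. In that fit mt-Co2, mt-Nd4l/mt-Nd4 and mt-Nd5/mt-Cytb did not pass (adjusted p = 0.0542, 0.0883 and 0.0938) and mt-Atp8/mt-Atp6 did (0.0396).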
